A study of Mus musculus with 18 samples.

Results

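The mitotic kinesins described here are 10 motor proteins of the dividing cell, namely Kif11, Kif14, Kif15, Kif18a, Kif20a, Kif20b, Kif22, Kif23, Kif2c and Kif4, out of 55453 genes in the deposited count table. The members were chosen by gene name with earlier results of these data in view, in which the differences of P10 baseline from P2 baseline and of P10 resected from P10 sham, and the way resection effects differed by age, were already known, so those comparisons are given as descriptions without a test. The other comparisons share libraries with them, so their calls and p-values are not independent of how the members were chosen. All 10 passed the filter on low counts that kept 16170 genes. The libraries were made from GFP+ cells sorted from the hearts of Tcf21-MerCreMer; Rosa-mTmG mice, in which 4-hydroxytamoxifen at P1 makes cells that express Tcf21, a transcription factor of cardiac fibroblasts and their precursors, switch permanently from tdTomato to GFP. There were 18 libraries in 6 groups of 3, all carrying both alleles and all given 4-hydroxytamoxifen, in C57BL/6J mice. P2 baseline and P10 baseline hearts had no surgery. The sham and resected groups of P2 had surgery at P2 and those of P10 at P10, and hearts were collected +3 days after it. Resection removed the apex of the ventricle, and sham surgery exposed the heart without cutting it. The label marks the cells that expressed Tcf21 on that day and their descendants, it was given only 1 day before the P2 baseline collection, and hearts of the P10 groups were digested for longer than those of the P2 groups, which cannot be told apart from age. The study addressed how cardiac fibroblasts differ between an age at which the mouse heart regenerates and an age at which it does not.

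Kinesins are motors that hydrolyse ATP to walk along microtubules or to take their ends apart. A set of them is made mainly in cells that are about to divide, where they build the bipolar spindle, align the chromosomes and split the cell, and their mRNAs accumulate in G2 and mitosis and fall after division. Their level in a population is therefore commonly read together with the share of cells in cycle, and in these bulk samples fewer dividing cells and less mRNA per dividing cell cannot be told apart.

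The library totals ran from 10462737 to 22980554 counts, and 1 count was worth less than 0.1 CPM in every library. CPM is the count per 1e+06 counts of the library after trimmed-mean (TMM) scaling. The fibroblast genes Tcf21, Pdgfra and Col1a1 were present in all 18 libraries, with Tcf21 between 203 and 447 CPM, and all 7 fibroblast markers were above 0 in every library. Markers of other cells were also present. The summed level of 15 macrophage markers ran from 8.41 CPM in P2 sham replicate 1 to 1267 CPM in P10 resected replicate 2, although 3 of the 15 were above 0 in every library and Itgam was at 0 in at least 9. The summed level of 12 cardiomyocyte markers ran from 1241 to 1607 CPM at P2 baseline and from 169 to 920.2 CPM in P10 sham. Such values are given again beside some of the comparisons below.

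The members fall into 4 roles. Kif11 (chr19:37376403-37421859, plus strand), a kinesin-5 that slides antiparallel microtubules apart, and Kif15 (chr9:122951046-123018733, plus strand), a kinesin-12 that can back it up, keep the spindle bipolar. Kif18a (chr2:109280738-109341747, plus strand), a kinesin-8 that damps chromosome movement at the spindle equator, and Kif2c (chr4:117159639-117182639, minus strand), a kinesin-13 that removes tubulin from microtubule ends and corrects faulty attachments, act on kinetochore microtubules. Kif22 (chr7:127027729-127042471, minus strand) and Kif4 (chrX:100625737-100727214, plus strand) are chromokinesins that bind chromosome arms. Kif14 (chr1:136466343-136531511, plus strand), Kif20a, Kif20b (chr19:34922361-34975745, plus strand) and Kif23 (chr9:61915905-61946774, minus strand) work at the central spindle and in cytokinesis. The coordinates are those of GRCm38. The counting ignored strand, and 29.3% of the exon bases of Kif20a lie opposite exons of Cdc23 and 15.1% of those of Kif4 opposite exons of Pdzd11, and the counting options given by the study do not let a read count for more than 1 gene, so reads over the shared bases are left out of both. The shared part was 1.96% for Kif22 and 0.112% for Kif18a, and the other 6 members shared none.

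Genes of the late cell cycle are known to be held off in resting cells and switched on in G2 through a short element near the start site, TTTGAA or TTCGAA, often beside a CCAAT box that NF-Y binds. The RefSeq table of promoter windows (GRCm38.p6, 250 bases before to 50 after the start) held 9 of the 10 members, all but Kif20a. TTTGAA was found on either strand in 8 of the 9 windows, beside 17.9% of all 32851 windows of the same length, and CCAAT in 5 of 9, beside 37.4%. Both CCAAT and one of TTTGAA or TTCGAA were found in 5 of 9 member windows, beside 7.52% of all windows, while TTCGAA itself (1.56% of all windows) and the E2F-type letters GCGGGAA (4.60%) were in none of the 9. The start used by the table lay 1505 bases inside the annotated gene for Kif14, 3867 for Kif2c and 328 for Kif4, so these windows are not at the annotated start. Of the other 6, all within 51 bases of it, 5 held TTTGAA and 3 held both TTTGAA and CCAAT. The following stretches run from 100 bases before to 20 after the RefSeq start and are shown as examples with a motif close to the start and, in Kif18a, the window without any. Capitals mark TTTGAA and CCAAT with their reverse complements TTCAAA and ATTGG, read 5′ to 3′ on the strand of the gene. They lie at chr19:37376282-37376401 (Kif11, plus strand), chr19:34922258-34922377 (Kif20b, plus strand), chr9:61946780-61946899 (Kif23, minus strand) and chr2:109280638-109280757 (Kif18a, plus strand).
Kif11: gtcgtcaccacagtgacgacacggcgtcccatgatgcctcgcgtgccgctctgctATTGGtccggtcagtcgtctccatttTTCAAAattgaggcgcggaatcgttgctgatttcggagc
Kif20b: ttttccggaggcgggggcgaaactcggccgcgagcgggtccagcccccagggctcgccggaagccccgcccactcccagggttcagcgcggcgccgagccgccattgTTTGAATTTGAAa
Kif23: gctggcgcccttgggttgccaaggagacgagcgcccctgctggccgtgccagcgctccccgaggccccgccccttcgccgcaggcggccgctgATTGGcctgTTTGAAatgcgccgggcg
Kif18a: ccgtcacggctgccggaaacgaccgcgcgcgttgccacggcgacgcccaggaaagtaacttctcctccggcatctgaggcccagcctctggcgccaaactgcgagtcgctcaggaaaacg
In Kif11 the reverse-strand ATTGG began 45 bases and TTCAAA 19 bases before the start. In Kif20b TTTGAA stood 2 times in a row, from bases 8 and 14 when the start is base 1, with no CCAAT in the window. In Kif23 ATTGG began 7 bases before the start and TTTGAA at base 3. The Kif18a window held none of the motifs. A match gives letters only, and neither the presence nor the absence of one says whether a factor binds.

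After sham surgery the kinesins were far lower at P10 than at P2. Both sham groups were part of comparisons already known when the members were chosen, so the calls below are not an independent test. The summed level of the 10 members was 437.9, 358 and 524 CPM in the 3 P2 sham libraries and 32.7, 53.0 and 40.2 CPM in the 3 P10 sham libraries. The edgeR quasi-likelihood test, with Benjamini-Hochberg adjustment over all 16170 genes, called 7 of the 10 lower in P10 sham and none higher, where 1.65% of all genes were called lower. The median log2 fold change of the members was -3.48, against -0.07 over all genes tested. In 9 of the 10 the groups did not overlap, beside 7.61% of all genes lower without overlap.

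Both spindle bipolarity motors fell. Kif11 was at 74.4, 27.2 and 99.1 CPM in P2 sham and at 2.25, 9.18 and 6.93 CPM in P10 sham, so that the highest P10 library lay under the lowest P2 library although P2 sham replicate 2 was well under the other two. Its log2 fold change was -3.45 ± 0.76 (SE, n = 3 per group, edgeR adjusted p = 0.0161). Kif15 was at 68.7, 23.5 and 23.1 CPM in P2 sham and at 1.20, 3.43 and 0.754 CPM in P10 sham. P2 sham replicate 1 was the high one here, and the groups were again apart, with a log2 fold change of -4.44 ± 0.60 (edgeR adjusted p = 0.000476).

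Neither of the kinetochore motors passed the edgeR test described above. Kif2c was at 20.9, 55.5 and 41.5 CPM in P2 sham, and at 0, 8.28 and 9.52 CPM in P10 sham. The groups did not overlap, with a log2 fold change of -2.73 ± 0.96 (edgeR adjusted p = 0.155). Kif2c did pass under 1 alternative setting, and over all alternatives its adjusted p ran from 9.53e-07 to 0.508. Kif18a was the member with overlapping groups, at 12.7, 3.46 and 24.3 CPM in P2 sham and 5.74, 1.49 and 1.79 CPM in P10 sham. Its log2 fold change was -2.16 ± 0.77 (edgeR adjusted p = 0.161).

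Both chromokinesins fell. Kif22 was at 63.9, 108 and 98.6 CPM in P2 sham and 6.04, 14.4 and 12.5 CPM in P10 sham, a log2 fold change of -3.04 ± 0.47 (edgeR adjusted p = 0.0013). Kif4 was at 44.5, 24.8 and 32.2 CPM in P2 sham and 0.799, 2.39 and 0.0471 CPM in P10 sham, where the last value is a single count. Its log2 fold change was -5.00 ± 0.90 (edgeR adjusted p = 0.00397). The single-count library makes the size of the Kif4 change less certain than its direction, since all 3 P2 libraries were above all 3 P10 libraries.

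Of the 4 motors of the central spindle, 3 fell. Kif20a (chr18:34624613-34633277, plus strand), which carries the Aurora B complex from the chromosomes to the midzone, was at 45.5, 62.7 and 98.8 CPM in P2 sham and at 1.15, 6.92 and 3.35 CPM in P10 sham. Its log2 fold change was -4.19 ± 0.56 (edgeR adjusted p = 0.000441), the smallest adjusted p among the members. Kif23, the motor subunit of centralspindlin, was at 75.4, 45.7 and 73.6 CPM in P2 sham and 11.99, 6.66 and 3.73 CPM in P10 sham, a log2 fold change of -3.12 ± 0.52 (edgeR adjusted p = 0.00206). Kif14, which brings citron kinase to the midbody, was at 5.94, 1.98 and 2.35 CPM in P2 sham and had 0, 1 and 0 counts in P10 sham. Over the group this is 1 count against 207, a depth-scaled ratio of 200.5, for which counting error alone gives an exact 95% interval from 35.6 to 7956. The fitted log2 fold change of Kif14, -7.08 ± 1.25 (edgeR adjusted p = 0.0035), depends on the prior count that the fit adds. Kif20b, a motor needed to complete abscission, was at 26.0, 5.81 and 30.2 CPM in P2 sham and 3.55, 0.259 and 1.56 CPM in P10 sham, and its log2 fold change of -3.51 ± 1.04 did not pass (edgeR adjusted p = 0.0798). Kif20b did pass with DESeq2, voom, no low-count filter, the replicate number as a block and the length offset, and over all alternatives its adjusted p ran from 2.64e-06 to 0.226.

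**Figure D1:**
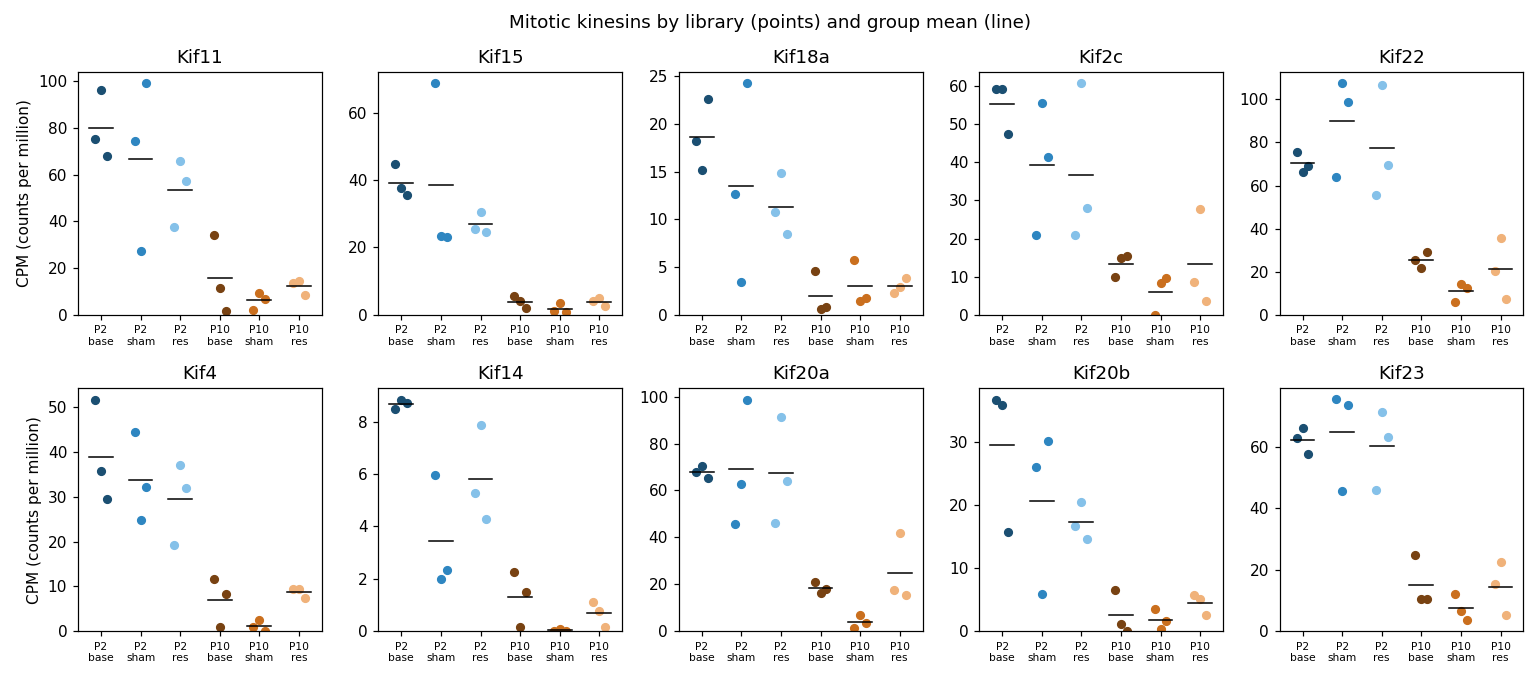
CPM (y axis, linear from 0, 1 panel per gene) of each mitotic kinesin in the 18 libraries, with a point per library and a line at the mean of each group of 3. The P2 groups are on the left and the P10 groups on the right of each panel, and Kif15, Kif20a, Kif22, Kif23 and Kif4 are lower in every P10 library than in any P2 library.

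Of the 7 calls, 6 held with each of the 6 sham libraries left out in turn. Kif11 lost it without P2 sham replicate 3, without P10 sham replicate 1 or without P10 sham replicate 3 (edgeR adjusted p between 0.0557 and 0.0736), and the number of members called was then 6. Fitting the 2 sham groups alone called 4 members, beside 0.479% of the genes in that fit called lower, and lost the calls of Kif11, Kif14 and Kif4 (edgeR adjusted p = 0.0638, 0.103 and 0.0762).

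Markers of other cells differed between the same groups. The summed macrophage markers were 8.41, 110.1 and 218 CPM in P2 sham and 112, 419.9 and 334 CPM in P10 sham, and all 15 had a positive log2 fold change with none called. The summed cardiomyocyte markers were 1155, 1454 and 1041 CPM in P2 sham and 169, 920.2 and 315 CPM in P10 sham, and 1 of 12, the fetal troponin gene Tnni1, was called lower. Their part in the lower kinesin level was not tested. None of the 7 fibroblast markers was called, and their median was 0.44 on the log2 scale.

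After resection all 10 kinesins had lower fitted levels at P10 than at P2, and 1 of them, Kif15, passed the test. Both resected groups were part of comparisons already known, so the calls and p-values are not independent of how the members were chosen. The summed level of the members was 284, 507 and 366 CPM in P2 resected and 97.9, 165 and 56.6 CPM in P10 resected. The median log2 fold change was -1.92, against -0.04 over all genes tested, and all 10 values were negative, from -3.09 for Kif14 to -1.44 for Kif20a. In 9 of 10 the groups did not overlap, beside 12.7% of all genes, the exception being Kif2c at 21.1, 60.7 and 28.1 CPM against 8.60, 27.6 and 3.496 CPM. The edgeR test called 1 of 10, Kif15, where 0.235% of all genes were called lower, and 8 of 10 had an unadjusted p under 0.05, as did 1418 of the 16170 genes.

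Kif15 was at 25.6, 30.6 and 24.4 CPM in P2 resected and at 4.08, 4.89 and 2.64 CPM in P10 resected. These are tight groups far apart, with a log2 fold change of -2.79 ± 0.55 (edgeR adjusted p = 0.019). Kif22 (-1.87 ± 0.45) and Kif23 (-2.06 ± 0.49) came next by adjusted p, with edgeR adjusted p = 0.0583 and 0.0605. Kif22 was at 55.8, 107 and 69.6 CPM in P2 resected and 20.3, 35.7 and 7.30 CPM in P10 resected. Kif23 was at 45.9, 71.3 and 63.2 CPM in P2 resected and 15.4, 22.4 and 5.28 CPM in P10 resected. In both genes replicate 2 was the highest of either group, and no P10 library reached the lowest P2 library.

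The number of members called after resection depended on the fit. DESeq2 called 5 (1.21% of all genes lower), voom with quality weights called 7 (2.59%), and edgeR without the low-count filter called 8 (0.758% of 28906 genes). Kif15 was lost when P2 resected replicate 2, P2 resected replicate 3, P10 resected replicate 1 or P10 resected replicate 3 was left out, and without P10 resected replicate 2 the test called 3 members (Kif15, Kif22 and Kif23), where 38 of 17241 genes were called lower. The summed macrophage markers were 521, 236 and 81.2 CPM in P2 resected and 523, 1267 and 87.4 CPM in P10 resected, and the summed cardiomyocyte markers 349.6, 933 and 1011 CPM against 774, 474 and 258 CPM. All 15 macrophage markers had a positive log2 fold change with none called, and 1 of 12 cardiomyocyte markers, Tnni1, was called lower. Their part in the kinesin difference was not tested.

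**Figure D2:**
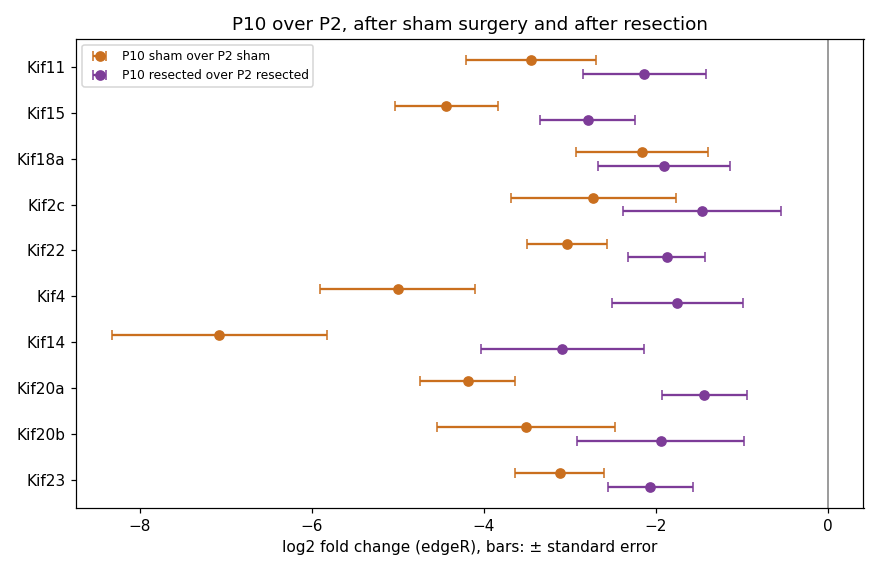
Log2 fold change of P10 over P2 (x axis, bars ± SE, n = 3 libraries per group) for each mitotic kinesin (y axis) after sham surgery and after resection. All 20 values are below 0, and the value of Kif14 after sham surgery rests on 1 count in the P10 libraries.

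At baseline the difference between the ages, which was known when the members were chosen, was of the same direction. The summed level was 500.3, 491 and 419 CPM at P2 baseline and 145, 81.3 and 87.2 CPM at P10 baseline. The log2 fold changes ran from -3.51 for Kif20b to -1.47 for Kif22, with a median of -2.42, and all 10 genes were lower in every P10 baseline library than in any P2 baseline library, beside 12.1% of all genes. P10 baseline replicate 1 was the highest of its group for 8 of the 10. Kif11, at 34.0, 11.6 and 1.58 CPM, had the widest range in CPM. Without P10 baseline replicate 1 the median was -3.29. Over all 9 P2 and all 9 P10 libraries, 5 of 10 members did not overlap, beside 1.36% of genes. For Kif11, Kif14 and Kif20b 1 P10 library, P10 baseline replicate 1, lay above the lowest P2 library, which was P2 sham replicate 2 each time. Markers of other cells differed between the baseline groups too. The summed mural cell markers were 584, 593 and 392 CPM at P2 baseline and 1567, 1068 and 830.4 CPM at P10 baseline, and edgeR called 5 of 9 mural, 3 of 7 fibroblast and 1 of 9 endothelial markers higher (2.71% of all genes). The endothelial call was Esam, while 5 of the 9 endothelial markers had negative log2 fold changes, with a median of -0.43. All 12 cardiomyocyte markers had negative log2 fold changes, with none called and sums of 1607, 1347 and 1241 CPM against 765, 581 and 731 CPM, and the part of these in the kinesin difference was not tested.

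Within P2 no difference between the 3 groups was detectable. In P2 resected against P2 sham the edgeR test called 0 of 10 members and 0% of all genes, with 0 of 10 at an unadjusted p under 0.05, and DESeq2 and voom called 0 of 10. The member log2 fold changes ran from -0.52 for Kif15 to 0.76 for Kif14, with a median of -0.21. Kif20a, for example, was at 46.3, 91.5 and 64.2 CPM in P2 resected, across the same range as in P2 sham, a log2 fold change of -0.03 ± 0.48. In P2 sham against P2 baseline 0 of 10 members and 0% of all genes were called, again with 0 of 10 at an unadjusted p under 0.05 and none by DESeq2 or voom. The lowest value there was Kif14, at 8.47, 8.84 and 8.71 CPM at P2 baseline, with a log2 fold change of -1.34 ± 0.88 (edgeR adjusted p = 0.782). In P2 resected against P2 baseline 0 of 10 were called (0.0124% of all genes), also by DESeq2 and voom and at an unadjusted p under 0.05, although Kif11, Kif14, Kif15 and Kif18a did not overlap and were lower in P2 resected, beside 5.12% of all genes. In that comparison all 15 macrophage and all 9 mural markers had positive log2 fold changes, with Vtn called. All 12 cardiomyocyte markers had negative ones, and the part of these markers in the kinesin values was not tested.

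Within P10, levels after sham surgery lay under baseline for most members, in a comparison whose groups were both part of those already known. The log2 fold change of P10 sham over P10 baseline was negative for 9 of 10, with a median of -1.20, and positive for Kif18a at 0.58 ± 0.76. Among the negative values that of Kif20b, -0.52, turned to 0.56 with voom and to 1.52 without P10 baseline replicate 1. The edgeR test called 0 of 10, with 0.00618% of all genes called, while 4 of 10 had an unadjusted p under 0.05, as did 1197 of the 16170 genes. DESeq2 called 2, Kif14 and Kif20a (0.408% of all genes lower), voom called 0, and edgeR without the low-count filter called Kif14, Kif20a and Kif4 (0.242%). Kif14, Kif20a, Kif22 and Kif2c did not overlap and were lower in P10 sham, beside 4.69% of all genes. Kif20a was at 20.8, 16.1 and 18.2 CPM at P10 baseline, a tight group above the P10 sham values of 1.15 to 6.92 CPM, with a log2 fold change of -2.28 ± 0.52 (edgeR adjusted p = 0.292). Kif22 was at 25.5, 21.8 and 29.3 CPM at P10 baseline, above 6.04 to 14.4 CPM in P10 sham. The 2 P10 baseline libraries other than replicate 1 held Kif18a at 0.589 and 0.789 CPM, and P10 sham replicate 1 held it at 5.74 CPM, the highest of all P10 libraries. The Kif18a difference turned negative, at -0.29 on the log2 scale, when P10 sham replicate 1 was left out. The summed macrophage markers were 20.0, 106 and 265 CPM at P10 baseline, beside 112, 419.9 and 334 CPM in P10 sham. All 9 mural and 11 of 12 cardiomyocyte markers had negative log2 fold changes, and the part of these markers in the lower values was not tested.

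In P10 resected against P10 sham, known when the members were chosen, all 10 log2 fold changes were above 0. They ran from 0.01 for Kif18a to 4.75 for Kif14, with a median of 1.15 beside 0.02 over all genes. Kif20a was at 17.5, 41.8 and 15.2 CPM in P10 resected and Kif4 at 9.34, 9.47 and 7.46 CPM, both above every P10 sham library, with log2 fold changes of 2.72 ± 0.52 and 3.05 ± 0.84. Kif14 had 36 counts in P10 resected against 1 in P10 sham, a depth-scaled ratio of 41.9 (exact 95% interval for counting error, 7.05 to 1699.8). These 3 were the members without overlap, beside 5.63% of all genes. The other 7 overlapped, such as Kif23 at 15.4, 22.4 and 5.28 CPM against 11.99, 6.66 and 3.73 CPM. This contrast, P10 sham against P2 sham and P10 sham against P10 baseline share the 3 P10 sham libraries, in which the summed level was lowest.

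P10 resected replicate 2 was the highest library of its group for 7 of the 10 members and held the most macrophage marker signal. The summed macrophage markers were 523, 1267 and 87.4 CPM in P10 resected replicates 1, 2 and 3, and the summed kinesins were 97.9, 165 and 56.6 CPM in the same order. All 15 macrophage markers and all 7 tested epicardial markers had a positive log2 fold change over P10 sham, with the epicardial sum at 57.0, 11.1 and 3.96 CPM against 0, 9.25 and 4.67 CPM. Of 9 endothelial markers 7 were positive and 2 negative, with a median of 1.08. The part of these markers in the kinesin values was not tested. Leaving out 1 library of the 2 groups at a time kept the median member log2 fold change between 0.89 and 1.46.

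No difference between P10 resected and P10 baseline was detectable, in a comparison whose groups were both part of those already known. The summed members were 145, 81.3 and 87.2 CPM at P10 baseline, within the span of the P10 resected values, and the member log2 fold changes ran from -0.92 for Kif14 to 0.80 for Kif20b with a median of 0.00. The edgeR test called 0 of 10 (0.0989% of all genes), with 0 of 10 at an unadjusted p under 0.05 and none by DESeq2 or voom. The difference between the resection effects, P10 minus P2, was above 0 for all 10 members, from 0.25 ± 1.05 for Kif18a to 3.99 ± 1.45 for Kif14, with a median of 1.44, and is a description for the same reason as above.

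**Figure D3:**
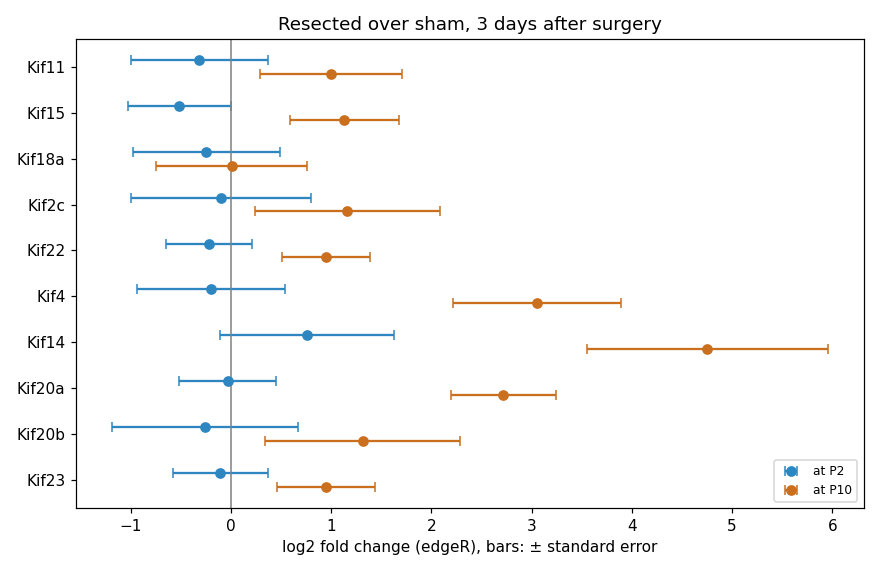
Log2 fold change of resected over sham (x axis, bars ± SE, n = 3 libraries per group) at P2 and at P10 for each mitotic kinesin (y axis). The P2 values lie between -0.52 and 0.76 and the P10 values between 0.01 and 4.75, where Kif14 at P10 rests on 1 count in the sham libraries.

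Relative to a sum of DNA replication genes the kinesins were lowest in P10 sham, which did not hold for every reference. The summed members divided by the summed level of 10 S phase genes gave 0.397, 0.276 and 0.385 in P2 sham, 0.293, 0.179 and 0.158 at P10 baseline and 0.115, 0.112 and 0.105 in P10 sham. In P10 resected the ratio was 0.144, 0.302 and 0.155, with the high value again in replicate 2. All 10 S phase genes were called lower in P10 sham than in P2 sham, with a median log2 fold change of -1.78, beside -3.48 for the kinesins. Mcm5, a subunit of the replicative helicase, was at 116, 142 and 148 CPM in P2 sham and 14.6, 48.4 and 44.3 CPM in P10 sham, a log2 fold change of -1.92 ± 0.43 (edgeR adjusted p = 0.0175). Divided by the sum of the 15 spindle and cytokinesis partners the kinesins gave 0.457, 0.426 and 0.523 in P2 sham and 0.317, 0.392 and 0.431 in P10 sham. Divided by the sum of Mki67 and Top2a they gave 0.589, 2.36 and 2.01 in P2 sham, 0.716, 2.08 and 3.54 in P10 sham and up to 4.99 at P10 baseline. Both of these ratios overlapped between the sham groups, and no test was made of any of the ratios.

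**Figure D4:**
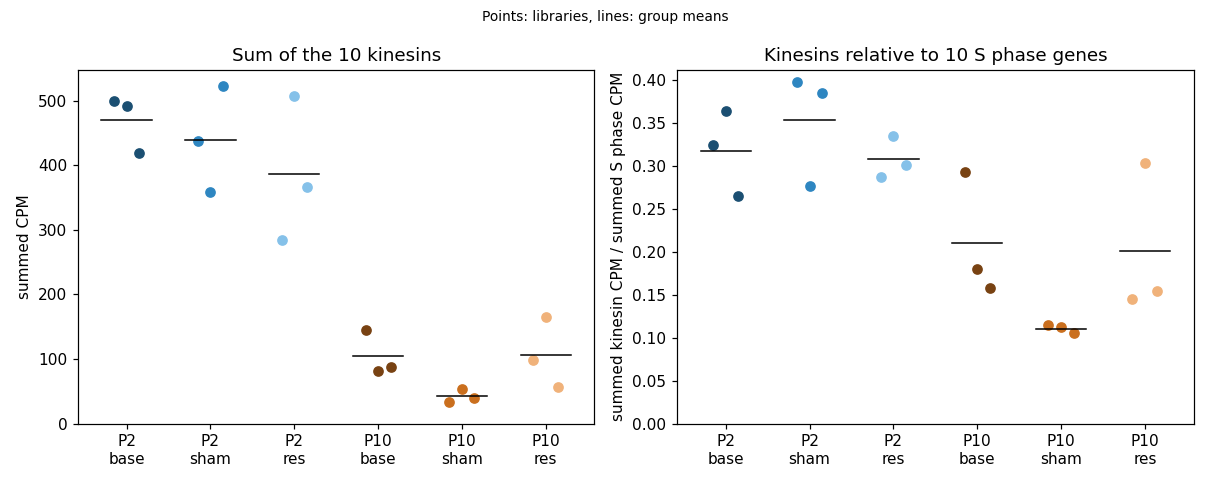
Left, summed CPM of the 10 mitotic kinesins (y axis) by group (x axis), and right, that sum divided by the summed CPM of 10 S phase genes, with a point per library and a line at the group mean. The P10 sham libraries sit lowest in both, at 32.7 to 53.0 CPM and at ratios of 0.105 to 0.115.

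Most partners of these motors were also called lower in P10 sham than in P2 sham. Of 15 spindle and cytokinesis partners 12 were called lower in P10 sham than in P2 sham and none higher (median -2.93 on the log2 scale). Between the resected groups edgeR called 0 of 15, although all 15 values were negative with a median of -1.72. Tpx2, which targets Kif11 and Kif15 to the spindle, was at 109, 94.9 and 82.0 CPM in P2 sham and 2.60, 14.3 and 7.31 CPM in P10 sham, a log2 fold change of -3.57 ± 0.57 (edgeR adjusted p = 0.00175). Racgap1, the partner of Kif23 in centralspindlin, was at 109, 108 and 108 CPM in P2 sham and 3.85, 10.3 and 13.01 CPM in P10 sham, a log2 fold change of -3.58 ± 0.54 (edgeR adjusted p = 0.00112). Prc1, the antiparallel microtubule bundler that Kif4 carries to the midzone, fell by 2.62 on the log2 scale (edgeR adjusted p = 0.0115), and Aurkb, the cargo kinase of Kif20a, fell by 2.84 (edgeR adjusted p = 0.00595). Cit, the kinase that Kif14 binds, had a log2 fold change of -3.40 ± 1.06 and did not pass (edgeR adjusted p = 0.0998).

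Among the transcription factors and complex subunits that control late cell cycle genes, 3 of 12 were called lower in P10 sham than in P2 sham. Foxm1, the forkhead activator of G2 genes, was at 39.6, 50.9 and 45.4 CPM in P2 sham and 8.84, 8.41 and 3.68 CPM in P10 sham (log2 fold change -2.70 ± 0.45, edgeR adjusted p = 0.00214). Mybl2, the Myb protein of the activating complex, fell by 2.54 on the log2 scale (edgeR adjusted p = 0.0406), and Rbl1, a pocket protein, was also called. Foxm1 was also the 1 of 12 called between the resected groups, with a log2 fold change of -2.03 ± 0.44 (edgeR adjusted p = 0.0321). The median of the 12 after sham surgery was -0.26, with 7 negative.

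Of the other kinesins of mitosis, Cenpe and Kifc1 fell too. Of 6 other kinesins listed here as mitotic, Kif2b had no counts in any library and 5 were tested, with a median log2 fold change of -2.75 after sham surgery. Cenpe, the kinetochore motor that carries chromosomes to the equator, was at 116, 8.62 and 38.4 CPM in P2 sham and 0.0499, 0 and 0.754 CPM in P10 sham (edgeR adjusted p = 0.000786). Kifc1, a minus-end motor that focuses spindle poles, was at 12.1, 10.5 and 10.4 CPM in P2 sham and 1.15, 2.26 and 1.13 CPM in P10 sham, a log2 fold change of -2.86 ± 0.59 (edgeR adjusted p = 0.011). Kif18b (-2.45 ± 1.06) and Kif24 (-2.75 ± 1.54) did not pass, with edgeR adjusted p = 0.26 and 0.398. Kif2a, a depolymerase that neurons and other resting cells also use, had a log2 fold change of 0.06 ± 0.45 (edgeR adjusted p = 0.983).

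Kinesins listed here as non-mitotic had medians near 0 in the comparisons between ages after surgery. Placing Kif24 with the mitotic kinesins and Stard9 with the non-mitotic ones was a choice made for these lists. Of 26 non-mitotic kinesins 22 were tested, and their median log2 fold change was -0.20 after sham surgery and 0.06 after resection, with 13 and 11 of 22 negative. The test called 1 of the 22, Kif13b, a cargo motor, which was higher in P10 sham by 1.38 ± 0.37 on the log2 scale (edgeR adjusted p = 0.0468). None was called between the resected groups, where Kif13b was at 0.81 ± 0.36 (edgeR adjusted p = 0.512). In P10 resected against P10 sham 20 of the 22 were positive, with a median of 0.33 beside 1.15 for the members.

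The members were not expressed at equal levels. Per kilobase of exon not shared with another gene, Kif20a averaged 13.6 CPM per kb over the 18 libraries and Kif22 10.2, followed by Kif2c at 6.26, Kif11 at 5.24, Kif23 at 4.73 and Kif4 at 4.24. Kif20b at 1.82 and Kif15 at 1.72 came next, and Kif18a at 0.874 and Kif14 at 0.32 were lowest. Kif20a and Kif22 exchanged places when the full exon length was used. At P2 baseline Kif20a stood at 22.1 ± 0.86 CPM per kb (SD, n = 3) and Kif22 at 14.6 ± 0.97, so that their ranges of mean ± SD did not overlap. Such ranges did overlap between each pair of neighbours from Kif22 through Kif2c (12.7 ± 1.55), Kif11 (10.7 ± 1.97) and Kif4 (8.33 ± 2.45) to Kif23 (7.86 ± 0.53). Kif20b (4.23 ± 1.71) lay apart from Kif23 and overlapped Kif15 (3.56 ± 0.44), and Kif18a (1.90 ± 0.38) and Kif14 (0.837 ± 0.018) each lay apart below. The order at P10 sham differed, with Kif22 first at 2.28 ± 0.91, Kif2c at 1.36 ± 1.19 and then Kif20a at 1.24 ± 0.95 CPM per kb, values that overlap.

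Over the 18 libraries the genes most like the members were Ccna2 (cyclin A2, Pearson r = 0.987), Tacc3 (a spindle microtubule protein, 0.977), Tmpo (a nuclear lamina protein, 0.977), Nuf2 (a kinetochore protein, 0.975) and Rrm2 (ribonucleotide reductase, 0.975). The measure is the correlation of log2(CPM + 1) with the mean standardised log2(CPM + 1) of the 10 members, over libraries that share group, depth and protocol, and it carries no test. Top2a ranked 11th and Mki67 129th among non-members, with r = 0.959 and 0.90. Over the 6 group means none of these 5 genes was among the 5 most like. Each member was also compared with the mean of the other 9, and Kif15 (0.957) and Kif23 (0.953) followed it most closely, while Kif18a (0.802) and Kif2c (0.795) followed it least.

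Within groups the members did not all deviate together. The deviations from the group mean were correlated pair by pair over the 18 libraries, and 38 of 45 pairs had a Pearson r above 0, with a median of 0.317. The highest were Kif22 with Kif2c (0.878), Kif20a with Kif2c (0.838) and Kif20a with Kif22 (0.817), and the lowest was Kif18a with Kif2c (-0.453). Kif20a, Kif2c and Kif22 are the members with the shortest exons, at 4338, 4363 and 4903 bases, while the exon lengths of the other 7 ran from 5514 bases for Kif4 to 11020 bases for Kif15. In P2 sham replicate 1 these 3 were the lowest of their group and Kif14, Kif15, Kif23 and Kif4 the highest. In P2 sham replicate 2 Kif22 and Kif2c were the highest and Kif11, Kif14, Kif18a, Kif20b, Kif23 and Kif4 the lowest.

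In some libraries deviations from the group mean followed exon length over all genes. Spearman's rho between deviation and exon length over 16067 genes was 0.287 in P2 sham replicate 1 and -0.292 in P2 sham replicate 2, and 0.312, -0.212 and -0.205 in P10 sham replicates 1, 2 and 3. Over the 10 members rho was 0.77 in P2 sham replicate 1, -0.673 in P2 sham replicate 2 and 0.515 in P10 sham replicate 1. Members also followed length where all genes did not, with rho of 0.685 over the members against -0.0555 over all genes in P2 resected replicate 1, -0.624 against -0.0167 in P2 resected replicate 2 and -0.479 against 0.026 in P10 resected replicate 2. They went against the trend of all genes in P2 baseline replicate 2 (-0.212 over the members, 0.18 over all genes) and P2 baseline replicate 3 (0.248 and -0.207). These rho values are across genes, which are not independent replicates. The part of length in the kinesin values was not tested beyond a fit with each library's length trend as an offset, which called 8 of 10 members in P10 sham against P2 sham (2.03% of all genes lower) and 2 of 10 in P10 resected against P2 resected (0.315%).

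**Figure D5:**
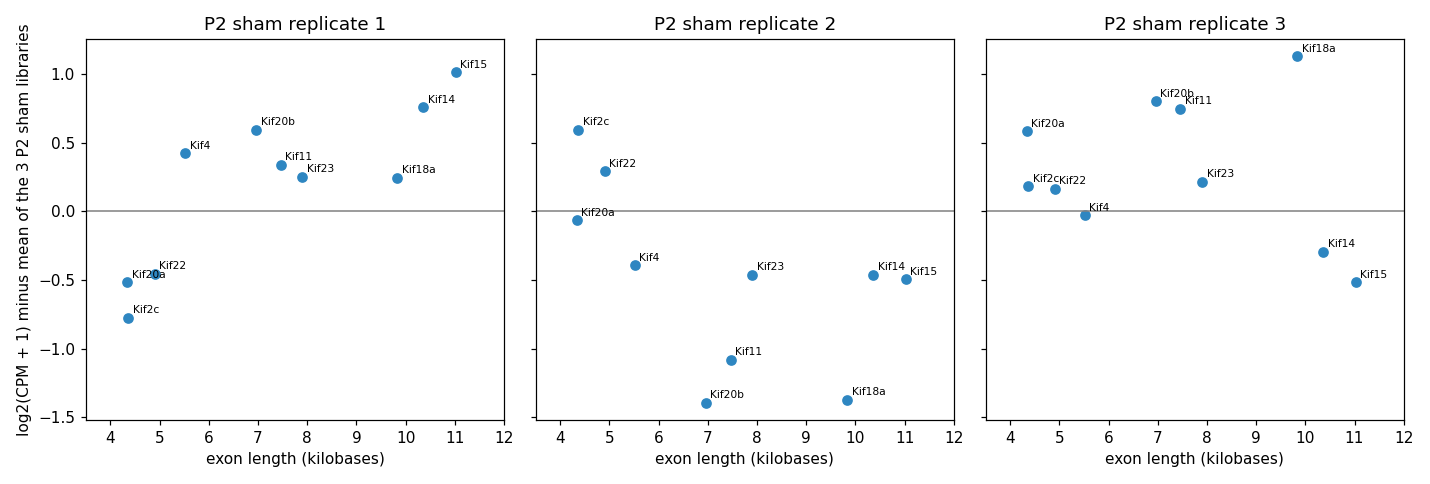
Deviation of log2(CPM + 1) from the mean of the 3 P2 sham libraries (y axis) against exon length in kilobases (x axis), with a panel per P2 sham library and a point per mitotic kinesin. In replicate 1 the 3 shortest genes lie lowest and Kif15, the longest, highest, and in replicate 2 the genes above 0 are Kif2c and Kif22.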

How the data were processed

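RNA-seq of GFP+ cells sorted from neonatal mouse hearts gave 18 libraries, 3 in each of 6 groups. Per the study's methods, cDNA was amplified from a low input of RNA, sequenced as single-end reads and counted per gene over exons without strand. The submitters' processing notes name fastp 0.20.0, STAR 2.7.0f, featureCounts of Subread 1.6.4 and GRCm38.p6. The deposited counts are raw read counts per gene made by the authors. Reads carry no molecular identifiers, so intervals cover counting error only, and whether replicates are separate animals is not stated, so p-values measure the spread between these libraries.

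Groups were taken from the sample descriptions. All 18 libraries entered a single edgeR 4.0.16 quasi-likelihood fit with a mean per group (R 4.3.3, TMM scaling, filterByExpr with a minimum count of 10 and total of 15, Benjamini-Hochberg over 16170 genes, threshold 0.05). CPM used the TMM effective sizes, from totals of 10462737 to 22980554. Alternatives were DESeq2 1.42.0, voom with quality weights (limma 3.58.1), RLE size factors, no low-count filter, the compared groups alone, the replicate number as a block and each replicate left out. A transcript length offset was added after seeing the data. The edgeR, DESeq2 and voom fits were tested on simulated data, in which a larger share of the DESeq2 calls than of the edgeR calls was false. The simulation used spreads estimated by edgeR and only P10 sham against P2 sham. It therefore does not show which DESeq2 calls in the real data are false.

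The members and gene lists were chosen with earlier results of these data known. The text names all members, the other mitotic kinesins, non-mitotic kinesins called in a tested contrast, set partners and regulators, and the 5 genes most like the members. Exon lengths and overlaps came from a GENCODE annotation of GRCm38, and promoter windows from RefSeq (GRCm38.p6). Counts listed as 0 for the pseudogenes Kif22-ps and Kif4-ps were left aside. The endothelial, mural and epicardial marker lists were also run. Calls at baseline are given with the results. In P10 sham against P2 sham none of 9 endothelial and none of 7 tested epicardial markers was called, and 1 of 9 mural markers, Vtn, was called higher.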

Additional observations from a re-analysis of the deposited data

How the results depend on the processing

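The number of members called in P10 sham against P2 sham was 7 and stayed between 7 and 9 with DESeq2, voom, RLE size factors, no low-count filter, the replicate block and the length offset, and was 4 with the compared groups alone, a fit of 13769 genes. Leaving out 1 library gave 6 to 7. In P10 resected against P2 resected 1 member was called, against 5 with DESeq2, 7 with voom, 8 without the low-count filter, 4 with the compared groups alone (140 of 14188 genes called lower), 2 with the length offset and 0 to 3 with 1 library left out, and the cause was not tested. In P10 sham against P10 baseline 0 were called, against 2 with DESeq2 and 3 without the filter, and 0 to 0 with 1 library left out. There the Kif20b log2 fold change, -0.52, turned to 0.56 with voom and ran from -1.46 to 1.52 with 1 library left out (1.52 without P10 baseline replicate 1), and that of Kif18a ran from -0.29 without P10 sham replicate 1 to 2.14 without P10 baseline replicate 1. In P2 resected against P2 sham, P2 sham against P2 baseline, P2 resected against P2 baseline and P10 resected against P10 baseline, 0 members were called under every setting run. The median member log2 fold change of P10 baseline over P2 baseline, -2.42, was -3.38 with voom and between -3.29 and -2.14 with 1 library left out. That of P10 resected over P10 sham was between 0.89 and 1.46, and that of the difference between the resection effects between 1.20 and 1.81. Of all genes tested, P10 sham against P2 sham called 515, against 1182 with DESeq2, 911 without the filter and 125 with the compared groups alone, and P10 resected against P2 resected called 139, against 505, 526 and 332 with the same settings and 908 with voom. The order of levels per kilobase put 8 of 10 members in the same rank with full exon length, and 0 of the 5 most like genes were shared with the ranking over 6 group means.

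Same-numbered libraries deviated together only weakly. Of 45 pairs 19 had a correlation above 0.1, with a median of 0.0368 over 2000 genes, beside -0.0281 for libraries of different numbers. The numbers are those of the sample descriptions, and this check cannot exclude that samples were paired, for example by litter. With the replicate number as a block, 8 members were called in P10 sham against P2 sham, where 315 of 16170 genes were called lower, and 3 in P10 resected against P2 resected, where 62 were. Kif14 held 0 or 1 count in all 3 P10 sham libraries, and Kif20b, Kif2c and Kif4 in single P10 libraries, which limits the precision of their fold changes.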
